A study of Homo sapiens with 8 samples.

Results

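CLK1, CLK2, CLK3, CLK4, CCNL1, CCNL2 and OGT are 7 human genes known for nuclear transcripts that keep 1 or more introns after the rest of the transcript has been spliced. They were chosen by name for that property, with earlier results of these data known. In the short-read table, which lists 62727 rows, 5 of the 7 had a row of their own: CLK2, CLK3, CLK4, CCNL1 and OGT. A row took a gene's name when it lay on the same strand and the Jaccard index of the spans, the shared bases divided by the bases covered by either, was at least 0.5. The rows that hold CLK1 and CCNL2 reached 0.404 and 0.311 and also hold other sequence, so they are described as locus rows. In the long-read table all 7 were named, with 126 of its 301869 transcripts.

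CLK1 to CLK4 are CDC-like kinases, dual-specificity kinases that phosphorylate the serine and arginine-rich (SR) splicing factors and release them from nuclear speckles. CCNL1 and CCNL2 encode cyclins L1 and L2, partners of the CDK11 kinases in pre-mRNA processing. OGT encodes O-GlcNAc transferase, the enzyme that adds a single sugar to serines and threonines of nuclear and cytoplasmic proteins. A detained intron is one that stays in a finished, polyadenylated transcript held in the nucleus. Removing it later makes a translatable mRNA, and for the CLK genes and OGT the splicing of such introns is known to respond to the activity of the encoded enzyme.

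The cells were HAP1, a near-haploid human leukemia line, grown with no treatment or genetic change named in the labels. Washed nuclei were extracted with urea and detergent, the supernatant gave the nucleoplasm fraction and the pellet the chromatin fraction, and ERCC standards, synthetic RNAs of known amount, were added to each fraction in equal volume. Short-read libraries were directional and came from 3 independent cultures, giving 3 chromatin and 3 nucleoplasm libraries. The 2 long-read libraries were made from chromatin RNA alone, which was tailed with an enzyme so that RNA without a poly(A) tail could be read too, so a detained transcript could not be told from one still being made. Recovered depth was 38895027 to 43804918 reads in chromatin and 75737601 to 79523938 in nucleoplasm. The fractions followed their titles: MALAT1, a nuclear-retained RNA, averaged 965711 normalized counts in chromatin against 113268 in nucleoplasm, and GAPDH, a stable housekeeping mRNA, 17269 against 87564. A count covers a whole assembled gene, so spliced and unspliced reads were not separated. In bulk RNA, more cells with a transcript and more copies per cell cannot be told apart.

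The splice sites at the kept introns are shown first, because the long-read results below describe the same introns. Introns were taken from each gene's MANE Select transcript, the 1 transcript per gene agreed by RefSeq and Ensembl, in GENCODE release 44 on hg38, and numbered in the direction of transcription. For each gene the intron with the highest mean TPM in reference transcripts that keep it whole was taken, and CCNL2 had none. The genes lie at chr2:200853009-200864691 (CLK1, minus strand), chr1:155262868-155278491 (CLK2, minus), chr15:74598500-74645414 (CLK3, plus), chr5:178602664-178630615 (CLK4, minus), chr3:157146508-157160760 (CCNL1, minus), chr1:1385711-1399335 (CCNL2, minus) and chrX:71533087-71575892 (OGT, plus). The 5′ splice sites are given as 3 exon bases in lower case and 6 intron bases in capitals. For CLK2 the 3 kept introns had equal TPM, and for CLK3 intron 3 was slightly above intron 4; intron 4 is shown for all CLK genes so that paralogs can be compared.
CLK1 intron 4, 5′ site: gatGTATAG
CLK2 intron 4, 5′ site: gatGTACAA
CLK3 intron 4, 5′ site: gatGTACAG
CLK4 intron 4, 5′ site: gatGTATAG
CLK3 intron 3, 5′ site: tcgGTGAGT
CCNL1 intron 5, 5′ site: ctgGTAAGT
CCNL1 intron 4, 5′ site: aagGTGAGT
OGT intron 4, 5′ site: aagGTAGGT
The matching 3′ splice sites are given as the last 20 intron bases in capitals and 3 exon bases in lower case.
CLK1 intron 4, 3′ site: GATTTATTTCTCTCTTTTAGatg
CLK2 intron 4, 3′ site: CCTGCTCTCTTTCATTTCAGatg
CLK3 intron 4, 3′ site: CAATTTCTTTTCTCTCCTAGatg
CLK4 intron 4, 3′ site: TTTTTCCCTCCTCACTCTAGatg
CLK3 intron 3, 3′ site: TCGGGGGGCGGTGCATGCAGaga
CCNL1 intron 5, 3′ site: ATAGTTGAAATATTTTTCAGgaa
CCNL1 intron 4, 3′ site: TTTTTTCCCTTGTCCTTCAGatc
OGT intron 4, 3′ site: TTTCATTAACCCCTCCTAAGgca

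Intron 4 of the CLK genes had unusual 5′ splice sites. The commonest base at each of the 9 positions over 182029 introns of protein-coding MANE transcripts spelled CAGGTAAGT, read on the transcribed strand. All 4 CLK intron 4 sites matched it at 4 of 9 positions, a level reached or undercut by 1.71% of those introns, and no other of the 89 introns of the 7 genes was that low. The 9 letters of CLK1 and CLK4 are identical to each other and occurred at 2 of the 182029 introns, which are these; the CLK2 and CLK3 letters each occurred at 1. The CLK genes are paralogs, so the 4 sites share descent and are not independent. Their 3′ sites had 14, 15, 15 and 16 pyrimidines among the first 17 of the 20 intron bases in CLK1, CLK2, CLK3 and CLK4, where the median intron had 13. The intron 3 site of CLK3 had 6. The 5′ sites of CCNL1 and OGT were ordinary by their matches, with 8 at CCNL1 intron 5, 7 at CCNL1 intron 4 and 7 at OGT intron 4, against a median of 6. Their 3′ sites had 9 pyrimidines among the same 17 bases at CCNL1 intron 5, below the median of 13, 16 at CCNL1 intron 4 and 14 at OGT intron 4. Exon 4 of the CLK genes, the exon just before these sites, is 91, 88, 97 and 91 bases long, none a multiple of 3, and in CLK1 skipping it is known to give a form without kinase activity. A match to the consensus is a description of letters and was not tested against splicing.

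Of the 89 MANE introns of the 7 genes, 20 (22.5%) are kept whole inside an exon of at least 1 annotated transcript. Over all protein-coding genes the share was 6.74%. Because the genes were chosen for detained introns, this describes the choice. The 20 introns had a median length of 386.5 bases and the other 69 of 674 bases. Across all genes the medians were 284 bases for introns annotated as kept and 1728 bases for the rest.

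In the short-read libraries all 5 genes with rows of their own had a higher mean in chromatin than in nucleoplasm. CCNL1 was 11.1-fold and OGT 6.72-fold higher, and the 3 CLK genes were between 2.13-fold and 3.45-fold higher. At an adjusted p under 0.05 in limma, 5 of 5 were higher in chromatin, where 44.2% of the 26066 tested genes and 30.2% of the 12493 tested protein-coding genes were. With a fold above 4 as well, 2 of 5 (CCNL1 and OGT) were called, against 21.2% of all tested genes and 3.94% of protein-coding genes. The median log2 fold change was 1.79 over the 5 genes, -0.02 over all tested genes and -0.39 over protein-coding genes. All tested genes hold many non-coding rows, which is why both backgrounds are given.

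CLK2 had the lowest counts and the lowest fold. Its normalized counts were 1132, 1223 and 1062 in chromatin and 556, 497 and 554 in nucleoplasm. Every chromatin library was above every nucleoplasm library. The log2 fold change was 1.09 ± 0.07 (SE, n = 3 and 3, limma adjusted p = 1.09e-06). That put CLK2 at the 88.2 percentile of protein-coding genes. The HCN3 gene, which encodes a pacemaker channel, overlaps the 5′ end of CLK2 on the opposite strand and had a row of its own with a mean of 408 in the chromatin libraries and 321 in the nucleoplasm libraries.

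CLK3 had 8393, 7630 and 8090 normalized counts in the chromatin libraries and 2701, 2441 and 2675 in nucleoplasm. The fractions stood apart by more than the spread within either. Its log2 fold change was 1.63 ± 0.06 (limma adjusted p = 2.71e-08), the 93.8 percentile of protein-coding genes. EDC3, an mRNA decapping factor gene that overlaps the 3′ part of CLK3 on the other strand, went the other way, from 6659 in nucleoplasm to 4070 in chromatin (log2 fold change -0.71 ± 0.06, limma adjusted p = 3.65e-06). Because the libraries were directional, the rows of the overlapping genes were counted apart.

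CLK4 had 6849, 6922 and 7182 normalized counts in the chromatin libraries and 2135, 2037 and 1909 in nucleoplasm. The log2 fold change was 1.79 ± 0.05 (limma adjusted p = 1.43e-08), the highest of the 3 CLK genes with rows of their own and at the 95.0 percentile. No opposite-strand row lies over CLK4.

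The CLK1 locus row had 4385, 4204 and 4246 normalized counts in the chromatin libraries and 1488, 1339 and 1288 in nucleoplasm. Its log2 fold change was 1.64 ± 0.06 (limma adjusted p = 3.13e-08). The row begins 2700 bases upstream of the annotated gene and runs 14531 bases past its 3′ end. No other protein-coding gene lies inside it on the same strand, but a 5S rRNA pseudogene lies downstream of CLK1 and a Y RNA copy lies inside it. How much of the row's count comes from CLK1 itself was not tested.

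Within a library, the ratio of 1 CLK gene to another does not depend on scaling. The log2 ratio of CLK2 to CLK4 was -2.60, -2.50 and -2.76 in chromatin and -1.94, -2.03 and -1.78 in nucleoplasm, so CLK2 was lower against CLK4 in chromatin by a mean difference of -0.70. Against CLK3 the difference for CLK2 was -0.54, and the CLK1 row exceeded CLK2 by 0.56 more in chromatin, both without overlap. The ratio of the CLK1 row to CLK3 overlapped between the fractions (difference 0.02, exact two-sided permutation p = 0.8), and so did that of CLK3 to CLK4 (difference -0.16, exact p = 0.2). For CLK1 and CLK4 the difference was -0.14 without overlap. With 3 libraries against 3 the exact test cannot go below p = 0.1, the value reached by every pair without overlap (0.14 after Benjamini-Hochberg adjustment over 7 pairs).

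**Figure D1:**
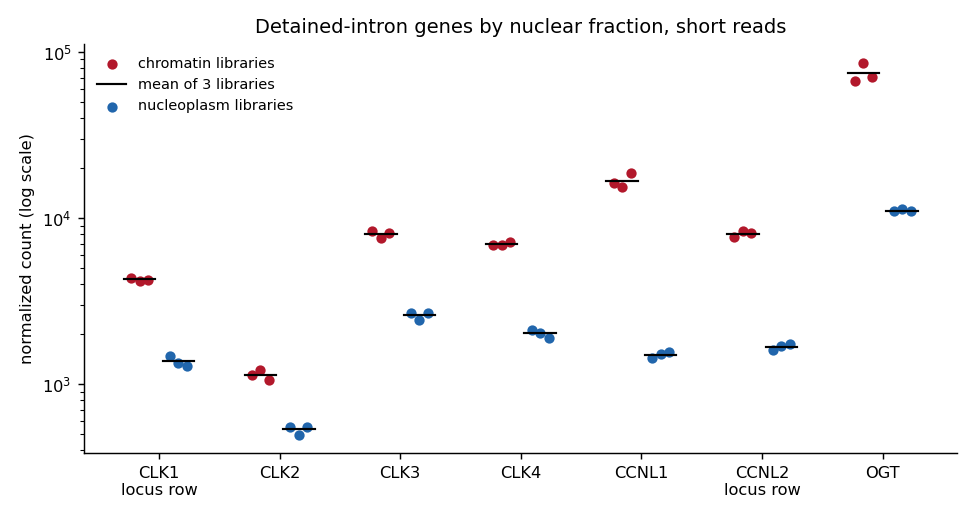
Normalized counts (log scale) of the 7 genes in each of the 3 chromatin (red) and 3 nucleoplasm (blue) short-read libraries, with a bar at each mean. In every gene or locus row the chromatin points lie above the nucleoplasm points, from CLK2 (fold 2.13) to CCNL1 (fold 11.1). The share of all tested genes separated in this way is not given, so the separation has no background beside it.

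Cyclin L1 showed the largest difference of the set. CCNL1 had 16159, 15385 and 18754 normalized counts in the chromatin libraries and 1438, 1527 and 1564 in nucleoplasm. The lowest chromatin library was thus 9.84-fold above the highest nucleoplasm library. The log2 fold change was 3.47 ± 0.08 (limma adjusted p = 8.95e-09), and 90 of 12493 protein-coding genes had a higher one. The only opposite-strand row over CCNL1, a Y RNA copy, was at 0 in all 6 libraries.

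The CCNL2 locus row had 7746, 8368 and 8081 normalized counts in the chromatin libraries and 1606, 1696 and 1751 in nucleoplasm, with a log2 fold change of 2.26 ± 0.05 (limma adjusted p = 9.45e-09). This row runs 30017 bases upstream of CCNL2 and takes in MRPL20, a mitochondrial ribosomal protein gene, on the same strand. The protein-coding gene ANKRD65 (1.66 and 0 TPM in the long-read libraries) and RN7SL657P also lie in it on that strand. In the long-read chromatin libraries MRPL20 had 105 and 165 TPM, more than CCNL2 itself, so the count of the row cannot be read as that of CCNL2. The log2 ratio of CCNL1 to the CCNL2 row was 1.06, 0.88 and 1.21 in chromatin and -0.16, -0.15 and -0.16 in nucleoplasm. The fractions did not overlap in this ratio (difference 1.21, exact two-sided permutation p = 0.1, the smallest possible).

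OGT was the most abundant of the 7. Its normalized counts were 66872, 86202 and 70641 in chromatin and 11044, 11265 and 11003 in nucleoplasm. The chromatin library of replicate 2 stood above the other chromatin libraries, while the nucleoplasm libraries lay close together. The log2 fold change was 2.74 ± 0.09 (limma adjusted p = 1.97e-08), with 200 protein-coding genes higher. No opposite-strand row lies over OGT in the short-read table.

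Levels were compared per kb of row span and per kb of exon, since the table gives no transcript length. OGT had a mean of 1736 normalized counts per kb of span in chromatin, CCNL1 1092, CLK4 248, the CCNL2 row 184, CLK3 171, the CLK1 row 148 and CLK2 72.2. Of neighbours in this order, only the CCNL2 row and CLK3 overlapped between libraries. In nucleoplasm the order of the level per kb of span was OGT (258), CCNL1 (98.4), CLK4 (71.9), CLK3 (55.5), the CLK1 row (47.4), the CCNL2 row (38.4) and CLK2 (33.96), with no overlap between neighbours. The order depended on the length used. Per kb of the gene's annotated exons, the chromatin order was OGT (7607), CCNL1 (1921), the CCNL2 row (1179), CLK4 (882), the CLK1 row (836), CLK3 (408) and CLK2 (311). In nucleoplasm it was OGT (1133), the CLK1 row (268), CLK4 (256), the CCNL2 row (246), CCNL1 (173), CLK2 (146) and CLK3 (132). OGT was first by both lengths in both fractions and CLK2 last by both in chromatin, while CCNL1 fell below CLK4 and both locus rows in nucleoplasm per kb of exon. The exon length of a locus row covers the named gene alone, although its count also holds other sequence.

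The size of each difference depended on how the fractions were scaled. Scaled to the same ERCC total, which counts RNA per volume of standard, the median log2 fold change of all tested genes moved from -0.02 to -1.33 and that of protein-coding genes to -1.71. On that scale CCNL1 was at 2.14 and OGT at 1.41, both higher in chromatin, and CLK4 at 0.46 (limma adjusted p = 0.0252). CLK3 (0.30, limma adjusted p = 0.146) and CLK2 (-0.24, limma adjusted p = 0.271) did not pass, and CLK2 changed sign. The CCNL2 locus row was at 0.94 and the CLK1 locus row at 0.32 (limma adjusted p = 0.127). Scaled to the same total per library, the median of all genes was 0.44 and the 5 genes lay between 1.55 (CLK2) and 3.93 (CCNL1). On each scale the 5 genes lay above the median of protein-coding genes.

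**Figure D2:**
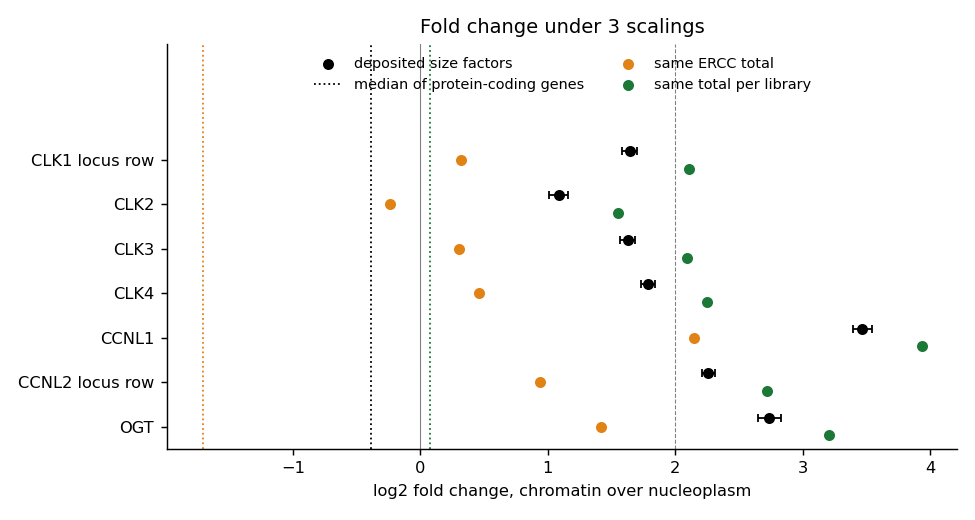
Log2 fold change of chromatin over nucleoplasm for the 7 genes or locus rows under 3 scalings, with the SE (bars) for the deposited size factors. Dotted lines mark the median of protein-coding genes in the color of each scaling (-0.39, -1.71 and 0.07), the thin solid line marks 0 and the dashed line the 4-fold minimum of 2. Every point lies right of its own dotted line, and CLK2 alone falls below 0, under the same ERCC total.

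The long-read table splits each gene into transcripts in chromatin RNA, in TPM, which is a level per length. It names reference transcripts by Ensembl ID and assembled ones by number, and gives no exon positions, so what a reference transcript keeps or splices was read from GENCODE. Of 117 reference transcripts of the 7 genes, 82 had both ends within 200 bases of the annotated ones. TPM holds no depth, and the group is 2 libraries of 1 fraction, so both values are given and no test was made. In replicates 1 and 2 the summed TPM on the gene's strand was 84.7 and 83.4 for CCNL1, 67.7 and 52.8 for OGT, 60.6 and 58.8 for CLK1, 69.4 and 26.5 for CCNL2, 32.7 and 23.1 for CLK4, 28.2 and 23.8 for CLK3, and 12.8 and 10.4 for CLK2. CLK2 was lowest in both libraries, as it was per kb in short-read chromatin. OGT, first per kb in short reads, was below CCNL1 here on the gene's own strand. This order leaves out opposite-strand transcripts, described below, with 85.3 and 74.0 TPM over OGT and 20.8 and 28.7 over CCNL1. CCNL2 differed between the libraries by more than any other gene.

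CCNL1 was read mainly as retained-intron transcripts. Reference transcripts annotated as retained intron or as targets of nonsense-mediated decay (NMD), the pathway that destroys mRNAs with an early stop codon, held 70.0% and 70.4% of its TPM in the 2 libraries. The transcript with the highest mean was CCNL1-215, a retained-intron transcript at 27.2 and 22.9 TPM. An assembled transcript at chr3:157149287-157160760 had 23.0 and 24.5 TPM, above CCNL1-215 in replicate 2, and CCNL1-214, also a retained-intron transcript, 10.4 and 8.50. The MANE transcript that encodes cyclin L1 had 0.186 and 0.203 TPM. The 2 libraries gave closely similar values for each of these.

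Among CCNL1 introns kept whole by a reference transcript, introns 4 and 5 led. Reference transcripts that keep intron 5 (chr3:157150382-157152176, 1795 bases) summed to 37.6 and 31.4 TPM and those that splice it exactly to 7.97 and 10.9, so 82.5% and 74.3% kept it. Intron 4 (chr3:157152242-157153035, 794 bases) was kept by 81.1% and 77.4%. Introns 6 and 7 were kept whole by 20.1% to 23.0% in both libraries. Introns 2 and 8 were kept whole by at most 5.16%, and introns 1, 3, 9 and 10 by none. A transcript that begins or ends inside an intron or at its edge was not counted as keeping it. CCNL1-205, annotated as retained intron, begins at the edge of intron 2 and had 9.48 and 9.15 TPM. CCNL1-213, also annotated as retained intron, ends inside intron 3 and had 5.26 and 5.59 TPM. The introns most kept by this count lay next to each other in the middle of the gene.

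CLK1 was divided between an assembled transcript and reference transcripts with kept introns. The assembled transcript, chr2:200853002-200864744, spans the whole gene and had 46.8 and 21.9 TPM; its exons are not in the table. CLK1-210, a retained-intron transcript that keeps introns 3 and 4, had 8.88 and 23.2 TPM, and CLK1-207 had 2.38 and 3.66. The retained-intron and NMD share of all CLK1 TPM was 18.7% in replicate 1 and 62.6% in replicate 2, and of reference TPM alone 82.0% and 99.8%. Of the reference transcripts that keep or splice it, 81.9% and 100% kept intron 4 (chr2:200859747-200860124, 378 bases), the intron whose 5′ site is printed above. Intron 3 (chr2:200860216-200861237) was kept by 78.1% and 100%. The MANE transcript was at 0 TPM in both libraries.

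The same pair of introns, those on both sides of exon 4, were the only introns counted as kept whole in CLK3. CLK3-226 keeps both. Intron 4 (chr15:74622217-74622493, 277 bases) was kept by 24.1% and 89.4% and intron 3 (chr15:74620226-74622119) by 34.5% and 89.4%. The TPM that kept intron 4 was 4.13 and 4.35 and that for intron 3 was 5.90 and 4.35, while the MANE transcript CLK3-202 went from 11.2 to 0.518 TPM. By the mean the leading transcript of CLK3 was CLK3-208, a short retained-intron transcript at the 3′ end, at 8.25 and 10.4 TPM, although CLK3-202 was above it in replicate 1. CLK3-208 ends at the last base of intron 12 (chr15:74629033-74629706). CLK3-222, also annotated as retained intron, begins inside intron 12 and had 0.661 and 4.39 TPM. Neither was counted as keeping intron 12 whole. Retained-intron and NMD transcripts held 52.8% and 81.7% of CLK3.

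In CLK4 the levels were lower. Intron 4 (chr5:178616949-178617343, 395 bases) was kept by 1.55 and 4.06 TPM and spliced by 0.887 and 2.75 TPM, or 63.6% and 59.6% kept. Introns 11 and 12 were kept by 26.4% and 40.8% through CLK4-202, and intron 3 by 27.8% and 14.7%. An assembled transcript at chr5:178602659-178627179 had the highest mean, with 16.4 and 4.67 TPM, followed by CLK4-208, a protein-coding transcript of the 5′ end, at 6.75 and 4.92, and CLK4-204, annotated as retained intron, at 4.90 and 2.98. In replicate 2 alone CLK4-208 was above the assembled transcript and CLK4-202 (0.758 and 4.06 TPM) above CLK4-204. Retained-intron and NMD transcripts made up 29.2% and 48.4% of CLK4.

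CLK2 differed from its paralogs in having no reference transcript annotated as retained intron or NMD in the table, so its share was 0% in both libraries by construction. An assembled transcript at chr1:155262868-155273504 had 7.60 and 7.67 TPM, and the protein-coding CLK2-202 had 5.15 and 0.849. One transcript without such an annotation, CLK2-207, keeps introns 4, 10 and 11 and had 0 and 1.12 TPM. Of the TPM of reference transcripts that keep or splice intron 4 (chr1:155268360-155268707, 348 bases), 0% and 41.7% kept it, all through CLK2-207. Both values rest on low TPM and leave out the assembled transcript.

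CCNL2 gave the least stable picture. The coding MANE transcript CCNL2-201 had 60.9 TPM in replicate 1 and 4.33 in replicate 2. Retained-intron and NMD transcripts held 12.1% and 74.7%. In replicate 1 they were led by CCNL2-205 (3.76 TPM) and CCNL2-209 (2.81 TPM), both at 0 in replicate 2, and in replicate 2 by CCNL2-217 (0.283 and 9.22 TPM) and CCNL2-206 (0.881 and 6.74 TPM). None of the 10 MANE introns is kept whole by an annotated transcript. Part of an intron is carried by transcripts that begin or end inside it. These are CCNL2-206 at intron 4, CCNL2-209 and CCNL2-210 at intron 5 and CCNL2-205 at intron 8.

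OGT had a single leading transcript, an assembled one that spans the gene (chrX:71533062-71575892) at 56.7 and 41.4 TPM. Coding reference transcripts of OGT were at 0 TPM in both libraries. Retained-intron transcripts held 10.0 and 11.4 TPM, which was 91.1% and 100% of its reference TPM and 14.8% and 21.6% of the gene. OGT-208 was the largest of these in replicate 1 (4.83 and 0 TPM) and OGT-210 in replicate 2 (0 and 5.66 TPM), and OGT-209 had 1.81 and 3.74 TPM. OGT-210 keeps intron 4 (chrX:71544636-71547906, 3271 bases) and splices most others, and it is the only reference transcript above 0 TPM that keeps a MANE intron of OGT whole. It was listed at 0 in replicate 1. Of 21 annotated OGT transcripts 11 are in the table.

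**Figure D3:**
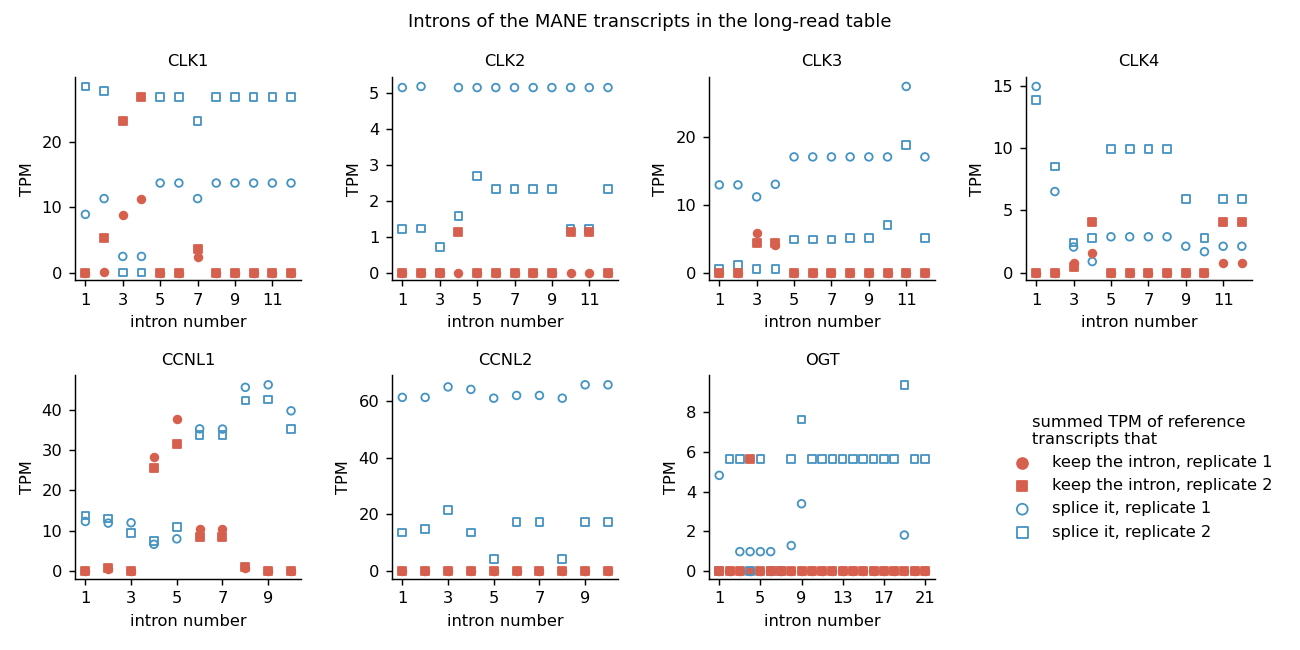
Summed TPM of reference transcripts that keep whole (filled) or exactly splice (open) each MANE intron, by intron number, in long-read replicate 1 (circles) and replicate 2 (squares). Transcripts that begin or end inside an intron or at its edge are not counted as keeping it. Assembled transcripts are left out because their exons are not given. Kept TPM stands mainly at introns 3 and 4 of CLK1 and CLK3, at introns 4, 11 and 12 of CLK4 and at introns 4 to 7 of CCNL1, at intron 4 of OGT in replicate 2 alone, and nowhere in CCNL2.

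To place these shares, 6313 protein-coding genes with a mean of at least 10 TPM were taken. Their median share in retained-intron or NMD transcripts was 4.57% and their upper quartile 21.9%. By the mean over both libraries CCNL1 stood at the 93.8 percentile, CLK3 at 93.1, CLK1 at 86.6, CLK4 at 85.2, CCNL2 at 80.9 and OGT at 70.9, with CLK2 at the lowest value. The genes were chosen for kept introns and such transcripts are annotated for some genes and not others, so these are descriptions.

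Assembled transcripts also lay on the strand opposite to the genes. Over OGT 1 such transcript spans the gene at 85.3 and 74.0 TPM, which was 55.7% and 58.4% of the TPM of both strands and more than the gene's own strand. Over CCNL1 they summed to 20.8 and 28.7 TPM, over CCNL2 to 22.2 and 22.6 and over CLK1 to 15.5 and 14.7. At the same Jaccard minimum none was found for CLK2, CLK3 or CLK4, but counting transcripts that lie mostly inside the gene gave 29.9 and 18.4 TPM for CLK3, 10.5 and 4.22 for CLK4 and 0 and 4.67 for CLK2. Among the 6313 genes 41.0% had such a transcript, and OGT stood at the 95.6 percentile of its share. In the directional short-read table no row lies opposite OGT, CLK1, CLK4 or the CCNL2 gene. Direct cDNA reads carry no strand by themselves. Whether the long-read table was made before or after strands were assigned is not stated, and the part this plays in the opposite-strand TPM was not tested.

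**Figure D4:**
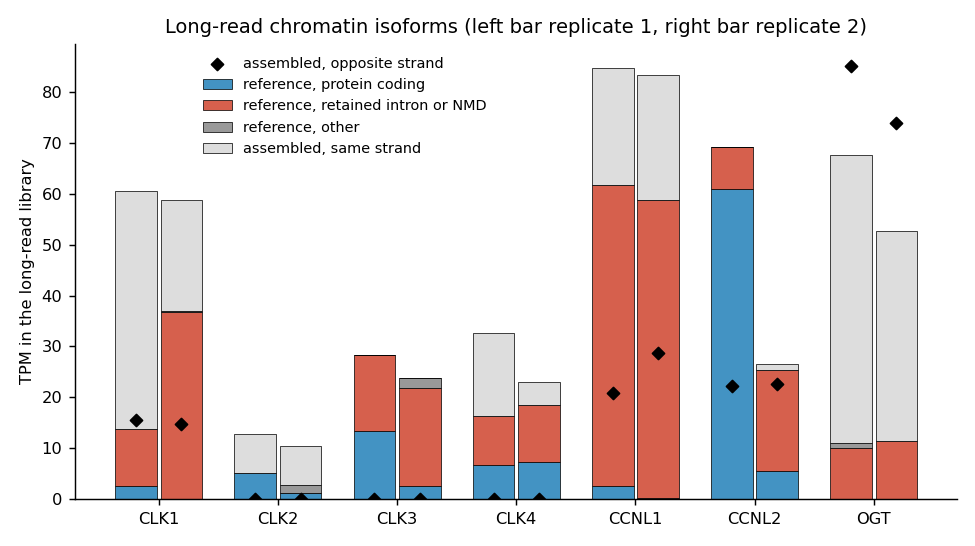
Long-read TPM of each gene in chromatin, stacked by transcript class, for replicate 1 (left bar) and replicate 2 (right bar), with diamonds for assembled transcripts on the opposite strand. CCNL1 is 70.0% and 70.4% retained intron or NMD, CCNL2 changes from coding to retained intron between the libraries, and OGT is the one gene whose diamonds (85.3 and 74.0 TPM) lie above its bars.

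The pathways around the 7 genes were compared through 5 lists. Beside their counts, 44.2% of all tested genes and 30.2% of tested protein-coding genes were higher in chromatin at an adjusted p under 0.05. The share higher in nucleoplasm at any fold was not computed. Among other kinases that act on SR proteins, 5 of 6 were tested, of which 2 were higher in chromatin and 3 in nucleoplasm, with none past the 4-fold minimum. PRPF4B, a kinase of the spliceosome, was highest (log2 fold change 1.74 ± 0.04, limma adjusted p = 1.04e-08) and TOP1, topoisomerase I, which also has SR protein kinase activity, was lowest (-0.80 ± 0.04, limma adjusted p = 1.59e-07). SRPK1 and SRPK2, both SR protein kinases, were at -0.29 and -0.21. The median of the list was -0.21.

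Among cyclin L partners and other transcription cyclins and kinases, 6 of 8 were tested. CCNT2, a cyclin T of the elongation factor P-TEFb, was 1.49 ± 0.05 and CDK13 0.61, both higher in chromatin, whereas CDK9, the P-TEFb kinase, was -0.63 ± 0.06, CDK12 -0.49 and CCNT1 -0.23, all lower. CCNK did not pass (0.10, limma adjusted p = 0.338). The partners CDK11A and CDK11B, near-identical neighbours, had no row of their own. None was called at 4-fold, and the median was -0.07.

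For O-GlcNAc removal and the synthesis of its donor sugar, 5 of 6 genes were tested. OGA, which removes the sugar that OGT adds, averaged 24766 ± 1262 normalized counts in the chromatin libraries and 13954 ± 333 in those of nucleoplasm (SD, n = 3), a log2 fold change of 0.83 ± 0.05 (limma adjusted p = 6.73e-07). PGM3 was at 0.15 and also higher in chromatin, while UAP1, the last enzyme of UDP-GlcNAc synthesis, was lowest at -1.02 ± 0.06. GNPNAT1 (-0.89) and GFPT2 (-0.28) were lower too. The median was -0.28, and none was called.

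Of the 12 SR proteins SRSF1 to SRSF12, substrates of the CLK kinases, 10 were tested. SRSF4 (1.59 ± 0.09), SRSF5 (1.49), SRSF10 (1.26), SRSF11 (0.99) and SRSF2 (0.37) were higher in chromatin. SRSF12 (-0.96 ± 0.05), SRSF3 (-0.94), SRSF8 (-0.42) and SRSF9 (-0.34) were lower, and SRSF7 did not pass (0.11, limma adjusted p = 0.106). None passed the 4-fold minimum, and the median was 0.24.

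The list of 6 other genes described with retained introns went with CCNL1 and OGT. NKTR, a cyclophilin with SR repeats, was 3.07 ± 0.06, ARGLU1, a splicing coactivator, 2.92 ± 0.06, MAT2A, which makes S-adenosylmethionine, 2.89 ± 0.08, RSRP1 2.73 ± 0.05 and PNISR 2.56 ± 0.05. These 5 of 6 were called at 4-fold in chromatin, where 21.2% of all tested genes and 3.94% of protein-coding genes were. SNRNP70, a protein of the U1 snRNP, was lower in chromatin at -1.40 ± 0.05, short of the 4-fold minimum that 8.47% of tested genes passed in that direction. The median was 2.81. This list was drawn up with earlier results of these data known, so it is a comparison of values only. Under the same ERCC total the median was 1.48 and none of the 5 was called, and the medians of the other 4 lists lay between -1.60 and -1.09. Under the same total per library those 4 medians were between 0.19 and 0.70. In the order given above, the 4 lists had 1, 0, 0 and 0 genes higher in chromatin under the same ERCC total and 4, 4, 3 and 6 under the same total per library, so the direction of single members of these lists depended on the scaling.

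**Figure D5:**
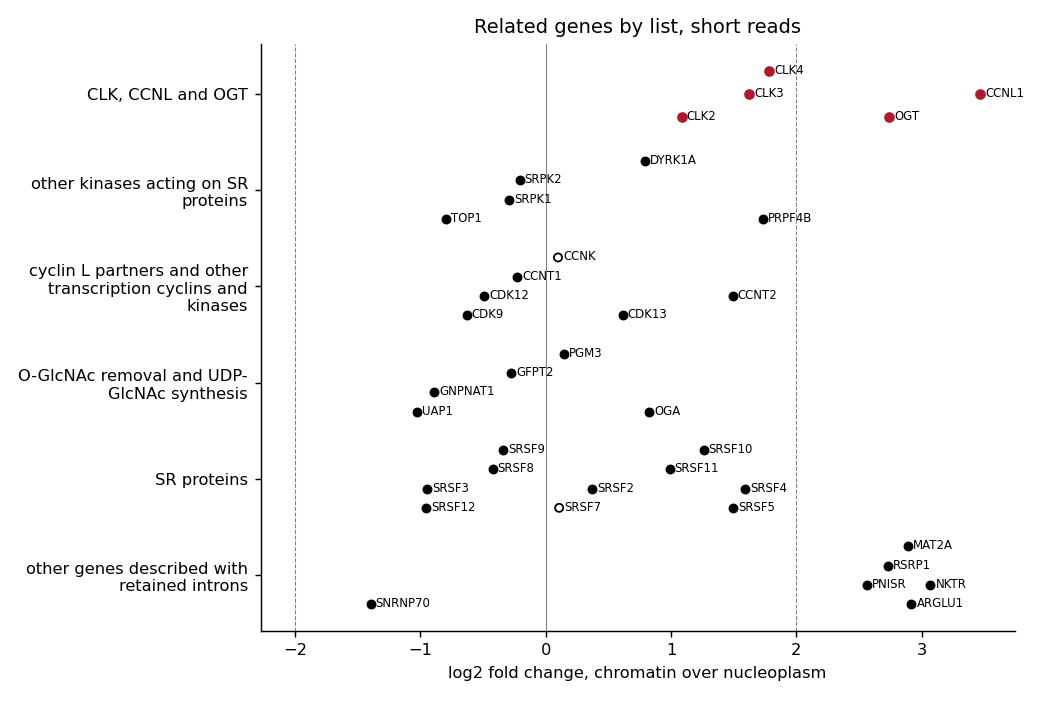
Log2 fold change of chromatin over nucleoplasm for the 5 genes with rows of their own (red) and the tested genes of 5 related lists (black, open where the adjusted p was 0.05 or above). Dashed lines mark the 4-fold minimum on either side. CCNL1, OGT and 5 of the 6 genes described with retained introns lie right of 2, and no gene of the other 4 lists does.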

How the data were processed

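The 8 libraries of nuclear HAP1 RNA were grouped by their titles because 1 label field names chromatin for all of them. For short reads, the authors aligned with HISAT2 2.1.0 to hg38, assembled and merged transcripts with StringTie and took gene counts from coverage. The deposited short-read values are such counts divided by a DESeq2 size factor, a normalized signal per gene. Long reads were aligned by the authors with minimap2 and assembled with StringTie, replicates were merged, and TPM per transcript was deposited.

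All nonzero short-read values (100%, tolerance 0.01) were whole multiples of the smallest value in their library, which gave recovered reads. They are estimates, since coverage was converted to counts. Fractions were compared with limma 3.58.1 in R 4.3.3, with a trend on log2(normalized count + 1), without covariates and with Benjamini-Hochberg adjustment. Tested were 26066 genes whose span exceeded 200 bases and whose normalized count reached 10 in 3 or more libraries, ERCC left out. A call needed an adjusted p under 0.05 and a fold above 4. Fold changes include the pseudocount of 1. Recovered reads were also fitted with edgeR 4.0.16 and with DESeq2 1.42.0. Other alternatives were scalings, pseudocounts and filters, the replicate number, and each library left out. The fits were tested on simulated data. P-values set the difference between fractions against the spread between libraries of 3 cultures, and the main fit did not pair the fractions.

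Names came from GENCODE release 44, later than the release the authors used. Named were the 7 genes, in each related list the tested members, the nearest profile of each gene and its leading long-read transcripts. The 7 genes and the lists were chosen with earlier results of these data known. The naming without a Jaccard minimum was added after seeing the data, as were the intron and splice-site values.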

Additional observations from a re-analysis of the deposited data

How the results depend on the processing

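Direction and call of the 5 genes held under edgeR, DESeq2, other pseudocounts, other filters on low counts and each library left out. The scaling and the fold minimum moved the counts. With the same ERCC total 1 of 5 genes was called instead of 2, 3 had an adjusted p under 0.05, the median log2 fold change was 0.46, CLK2 was at -0.24, and the lists had 0 calls toward chromatin and 6 toward nucleoplasm. With the same total per library 4 of 5 were called and the median was 2.25. At a fold minimum of 2 all 5 were called, and 10 of the listed genes passed in chromatin and 2 in the other direction. The share of all tested genes called was not computed for these scalings or this minimum, so these counts have no background beside them. The difference in the CLK1 to CLK3 ratio ranged from -0.0455 to 0.0510 with 1 library left out and changed sign without chromatin replicate 2 (-0.00666) or nucleoplasm replicate 3. The cause was not tested. With the recovered depth of the short-read libraries counting error was small. For the long-read libraries depth cannot be recovered from TPM. The paper does report their read numbers, which were unequal between the replicates. It describes the long-read depth as lower than that of the short reads. How much counting error adds to the differences between the long-read replicates was not tested.

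With the replicate number as a block (replicate block), 2 of 5 genes were called, 5 had an adjusted p under 0.05 and the median was 1.79. The labels do not say what a number marks. Same-numbered chromatin and nucleoplasm libraries deviated together with r = 0.0871, 0.0533 and 0.0626 over 26066 genes, and each chromatin library correlated best with its own number, a hint from the data and not from the design.

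In the long reads, a Jaccard minimum of 0.8 lowered CLK2 from a mean of 11.6 to 3.95 TPM, and counting every same-strand transcript mostly inside the gene raised OGT from 60.2 to 69.3 TPM and CLK1 from 59.7 to 67.0 TPM. Over reference transcripts alone the retained-intron and NMD share was 90.9% for CLK1, 59.5% for CLK4, 97.8% for CCNL1 and 95.6% for OGT, as means of both libraries.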

Other observations

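Among 12493 tested protein-coding genes, the one with the most similar profile to each of the 7 genes was found by the Euclidean distance over the 6 short-read libraries, after each gene's mean log2 value was subtracted. These were TBC1D7 for CLK2 (distance 0.0427), MOK for CLK3 (0.117), CNR1 for CLK4 (0.120), TTC14 for CCNL1 (0.325), TRPM3 for OGT (0.103), CHD2 for the CLK1 locus row (0.107) and C1QTNF6 for the CCNL2 locus row (0.0847). The neighbour of CCNL1 was the most distant of the 7. A Y RNA copy inside CLK1 on the same strand had 9.22 and 5.27 TPM in the long-read libraries. A long non-coding RNA gene, ENSG00000260919, lies opposite the start of CLK3. It averaged 23.2 normalized counts in the chromatin libraries and 1.16 in those of nucleoplasm. Both values are low, and it passed the filter on low counts through the chromatin libraries alone, so no test is given.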
